A study of Mus musculus with 10 samples.

Results

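Interferon-stimulated genes are the transcripts that a cell makes when interferon binds its receptor, and they code for sensors of foreign nucleic acid, proteins that stop viruses from entering or copying themselves, and enzymes that damp the response again. The genes described here are 49 such mouse genes named by symbol, without the Oas and Ifi200 families. Of these, 47 had a row among the 40690 genes of the count table, and the levels of Gbp5 and Gbp6 were not analysed here. They were split into 39 genes of the wider type I interferon response, called type I genes below, and 8 guanylate-binding proteins (GBP) and immunity-related GTPases (IRG). The type I class is a working label, since interferon gamma also induces many of its members, Irf1 and Irf8 among them. Values came from polyadenylated RNA of the heart ventricles of male C57BL/6 mice aged 10 weeks. The 5 sham samples came from mice that had undergone the operation that serves as control for ischemia-reperfusion. The 5 naive samples came from mice that had not been operated on. The labels name no transgene and no agent for either group, and they do not say how long after the operation the hearts were taken. The comparison asks how the interferon-stimulated transcripts of the ventricle differ after surgery without ischemia.

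Type I interferons signal through the receptor chains IFNAR1 and IFNAR2 and the kinases JAK1 and TYK2. These lead to a complex, ISGF3, which holds STAT2 and IRF9 and binds a promoter element called the interferon-stimulated response element (ISRE). Interferon gamma signals through IFNGR1 and IFNGR2 and the kinases JAK1 and JAK2 and acts mainly through another element, the gamma-activated sequence (GAS), and it is a strong inducer of the GBP and IRG families. In the heart, resident and recruited macrophages, endothelial cells and fibroblasts can all make interferon-stimulated transcripts.

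Both gene classes carried the ISRE letters close to their start sites, as the promoters of 3 type I genes and 3 GTPases show. Each line gives the 150 bases before the RefSeq transcription start, 5′ to 3′ on the strand of the gene, in GRCm38.p6, and the capitals mark every match to the ISRE letters, which were taken as GAAA, any 2 bases and again GAAA, on either strand. Matches may overlap each other.
Isg15 (chr4:156200819-156200968, minus strand): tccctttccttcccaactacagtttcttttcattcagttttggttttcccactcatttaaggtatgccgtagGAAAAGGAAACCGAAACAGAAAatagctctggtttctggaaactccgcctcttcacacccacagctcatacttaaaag
Ifit1 (chr19:34640739-34640888, plus strand): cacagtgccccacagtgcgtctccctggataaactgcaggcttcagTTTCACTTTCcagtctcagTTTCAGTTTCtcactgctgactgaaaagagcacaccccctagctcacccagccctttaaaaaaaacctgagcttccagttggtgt
Bst2 (chr8:71537473-71537622, minus strand): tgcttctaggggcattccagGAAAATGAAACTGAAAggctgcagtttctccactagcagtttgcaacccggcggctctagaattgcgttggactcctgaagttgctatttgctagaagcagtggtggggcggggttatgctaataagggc
Gbp2 (chr3:142620513-142620662, plus strand): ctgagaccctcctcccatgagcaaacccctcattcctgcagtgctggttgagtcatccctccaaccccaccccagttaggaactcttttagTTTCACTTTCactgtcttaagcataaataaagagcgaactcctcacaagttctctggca
Igtp (chr11:58199406-58199555, plus strand): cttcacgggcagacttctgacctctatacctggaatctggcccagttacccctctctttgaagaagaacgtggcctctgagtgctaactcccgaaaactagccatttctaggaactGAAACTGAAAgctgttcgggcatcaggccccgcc
Irgm1 (chr11:48871421-48871570, minus strand): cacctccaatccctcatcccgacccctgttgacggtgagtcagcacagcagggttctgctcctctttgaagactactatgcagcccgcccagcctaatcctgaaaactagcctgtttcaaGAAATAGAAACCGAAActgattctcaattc
Isg15 held 3 overlapping matches, Ifit1, Bst2 and Irgm1 held 2 each, and Gbp2 and Igtp held 1 each. Promoters of 250 bases before to 50 bases after the start were matched in the RefSeq promoter table used here for 36 of the 49 genes. A gene was counted if any of its promoters held a match on either strand. The ISRE letters were found for 13 of 29 type I genes (44.8%) and for 7 of 7 GTPases (Gbp5 among them). Over all 27025 genes with promoters of that length, 1079 (3.99%) held them. The GAS letters, TTCNNNGAA, have matches that overlap those of the ISRE in Bst2 and Ifitm3. They were found for 9 of 29 type I genes and 4 of 7 GTPases, against 9.55% of all genes with a promoter. A match is only a run of letters. Of the genes higher in sham ventricles, 11 of 22 with a promoter held the ISRE letters, and of the tested genes that did not pass or were lower, 8 of 13 did. These numbers leave out the higher genes Zbp1, Mx1, Ifi27l2a, Dhx58, Rtp4, Usp18 and Mx2, for which no promoter was matched. The same holds for Gbp4, Gbp6, Ifi27, Iigp1, Parp9 and Parp14.

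All 47 genes passed the filter on low counts, so that none is missing from the counts that follow. Levels are given in CPM, the counts scaled to a common library size with TMM factors. Log2 fold changes are sham over naive and stand ± SE, and tests are edgeR quasi-likelihood F tests with Benjamini-Hochberg adjustment over all 13622 tested genes, at an adjusted p under 0.05. Sham ventricles had more RNA of 29 of the 47 genes and less RNA of 1, and 17 did not pass. In bulk tissue, more cells of a type and more RNA per cell cannot be told apart. Over all tested genes, 17.2% were higher and 15.5% lower in sham. The median log2 fold change of the 47 genes was 0.77, against -0.05 for all tested genes. All 29 higher genes were type I genes, 29 of 39 (74.4%), with a median of 0.93. Of the 8 GTPases, 0 were higher, 1 (Gbp4) was lower and 7 did not pass, with a median of 0.23. Among only 8 genes, a count of 0 is not far from the 17.2% of all tested genes. The fitted values were positive in 7 of the 8, and whether the GTPases differ from the type I genes was not tested. At an unadjusted p under 0.05, 1 GTPase was higher and 1 lower. DESeq2 called 0 higher and 1 lower. Limma voom and the edgeR test without a filter each called 2 GTPases higher (Gbp3 and Irgm1) and 1 lower. Scaling by library size alone, which moved the median of all genes by 0.26, gave 3 GTPases higher and 0 lower, and 4473 of all genes higher and 283 lower, against 2342 higher and 2113 lower with TMM factors. At least a 2-fold increase was fitted for 19 of the 39 type I genes, against 7.3% of all tested genes. In 18 type I genes and 0 GTPases the lowest of the 5 sham libraries exceeded the highest of the 5 naive libraries, against 13.6% of all tested genes. All 5 sham libraries lay below all 5 naive libraries in 0 of the 47 genes, against 9.18% of all tested genes.

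**Figure D1:**
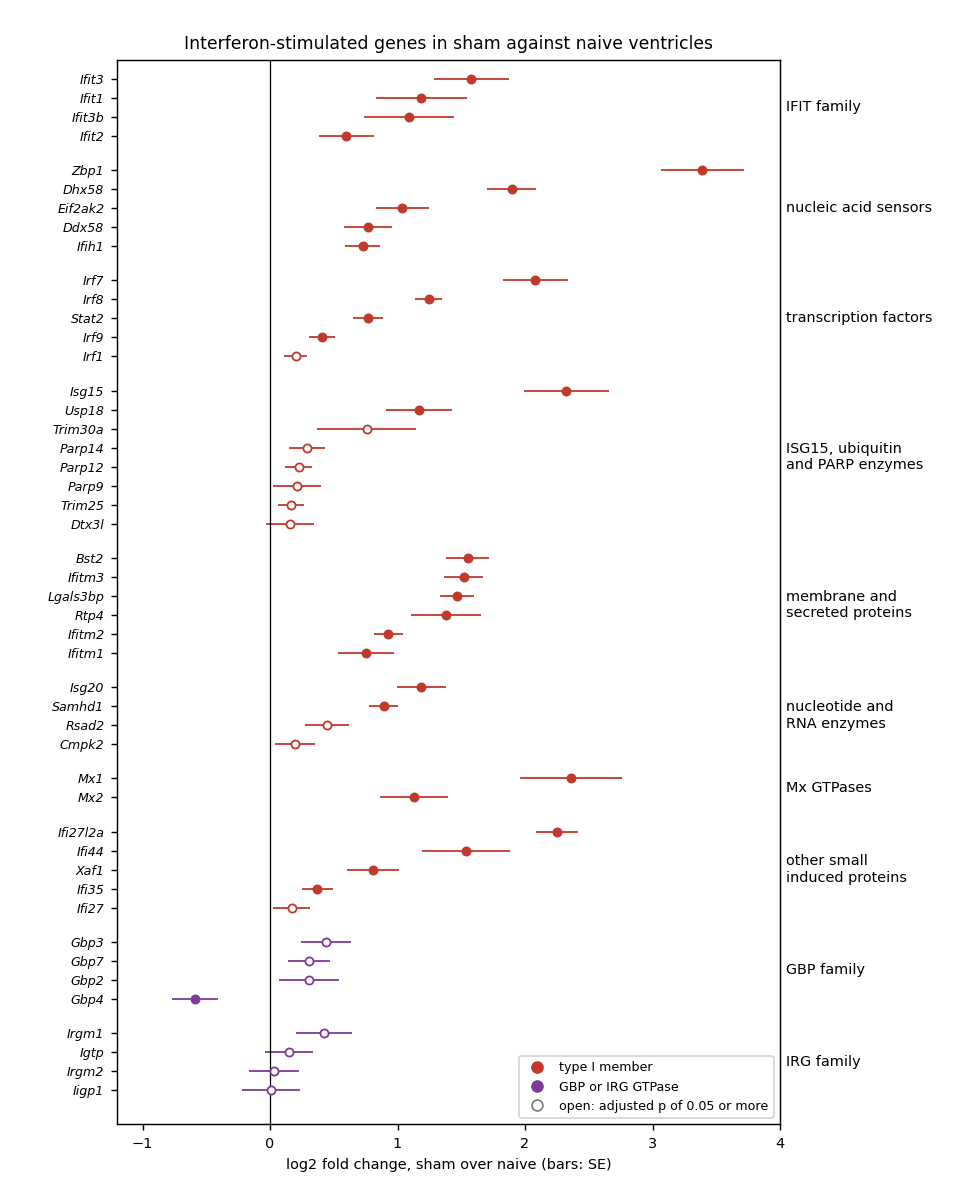
Log2 fold change of each gene in sham over naive ventricles (x axis, bars are SE), grouped by role down the y axis, with 5 libraries in each group. Filled points passed an adjusted p under 0.05 and open points did not, and the type I genes reach 3.39 (Zbp1), where the GBP and IRG GTPases lie between -0.59 and 0.44.

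The sensors of foreign nucleic acid were all higher in sham ventricles, 5 of 5, with a median log2 fold change of 1.04. Zbp1, which detects left-handed nucleic acid and can start necroptosis (chromosome 2, 173206612 to 173218923, minus strand of GRCm38), had 9.79, 25.5, 39.4, 23.8 and 28.2 CPM in sham 1 to 5, against 3.33, 2.4, 1.9, 2.51 and 2.21 CPM in naive 1 to 5. Even the lowest sham library lay above the highest naive library. Its log2 fold change, 3.39 ± 0.33 (adjusted p = 5.79e-06), was the largest of the 47 genes. Dhx58 (LGP2), a helper of the RNA helicase sensors, had 8.75, 14.4, 16.2, 12.8 and 13.5 CPM in sham 1 to 5, against 4.16, 3.57, 2.21, 3.37 and 4.36 CPM in naive 1 to 5, and the log2 fold change was 1.89 ± 0.19 (adjusted p = 1.37e-06). The sham libraries again lay above the naive ones without overlap, with sham 1 the lowest of them. The sensors of viral RNA that signal through MAVS had smaller fitted changes. Ifih1 (MDA5) rose by 0.73 ± 0.14 (adjusted p = 6.81e-04) on the log2 scale, with 7.54 to 11.2 CPM in sham and 4.86 to 6.19 CPM in naive libraries. Ddx58 (RIG-I) rose by 0.77 ± 0.19 (adjusted p = 0.00501), with 9.18 to 17.2 CPM in sham and 5.24 to 10.2 CPM in naive libraries. Eif2ak2 (PKR), the kinase that stops translation on binding double-stranded RNA, rose by 1.04 ± 0.21 (adjusted p = 0.0012), with 5.46 to 9.8 CPM in sham and 2.62 to 5.93 CPM in naive libraries. The groups stood apart for Ifih1 and overlapped for Ddx58 and Eif2ak2.

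Of the transcription factors, 4 of 5 were higher. Irf7, which amplifies type I interferon production (chromosome 7, 141262706 to 141266481, minus strand), had 40.7, 74.8, 126, 80.6 and 94.9 CPM in sham 1 to 5, against 24.2, 20.4, 15.9, 20.9 and 17.7 CPM in naive 1 to 5, and its log2 fold change was 2.08 ± 0.25 (adjusted p = 6.79e-05). The groups did not overlap, and sham 1 held the least among the sham ventricles. Irf8, a factor of monocyte and macrophage development, had 28.8, 32.5, 29.1, 29.2 and 30.0 CPM in sham 1 to 5, against 14, 11.8, 14.1, 13.6 and 9.91 CPM in naive 1 to 5, a rise of 1.25 ± 0.11 (adjusted p = 2.71e-07) on the log2 scale. Its sham libraries were close to each other, and it averaged 29.9 ± 1.51 CPM in sham and 12.7 ± 1.8 CPM in naive ventricles (SD, n = 5 each). The ISGF3 subunit Stat2 rose by 0.77 ± 0.12 (adjusted p = 1.17e-04), with 34.6 to 55.8 CPM in sham and 24.3 to 28.2 CPM in naive libraries, and Irf9 by 0.41 ± 0.10 (adjusted p = 0.00551), with 25.2 to 32.5 CPM in sham and 20.2 to 25.5 CPM in naive libraries. Irf1, which interferon gamma induces directly, had 30.0, 31.5, 31.6, 32.7 and 30.2 CPM in sham 1 to 5, against 23.3, 26.5, 31.4, 28 and 26.3 CPM in naive 1 to 5. The groups overlapped, and the log2 fold change of 0.20 ± 0.09 (adjusted p = 0.0969) did not pass, except with library size alone (adjusted p = 0.00112).

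Of the 8 genes around the ubiquitin-like modifier ISG15, 2 were higher and 6 did not pass. Isg15 itself (chromosome 4, 156199424 to 156200818, minus strand) had 9.61, 33, 46, 31.3 and 27.9 CPM in sham 1 to 5, against 5.71, 6.58, 5.85, 4.94 and 6.38 CPM in naive 1 to 5, and its log2 fold change was 2.32 ± 0.33 (adjusted p = 2.73e-04). Each sham library was above each naive library, sham 1 by the smallest margin. Usp18, the protease that removes ISG15 from proteins and blocks IFNAR2 signalling, rose by 1.17 ± 0.26 (adjusted p = 0.00274), with 4.17 to 8.05 CPM in sham and 1.67 to 3.92 CPM in naive libraries. The 6 genes that did not pass code for ubiquitin ligases, ADP-ribosyl transferases and their partners, and whether their changes differ from those of Isg15 and Usp18 was not tested. Trim25, an activating ligase of RIG-I, had 45 to 61.3 CPM in sham and 43.2 to 56.1 CPM in naive libraries, at 0.16 ± 0.10 (adjusted p = 0.229) on the log2 scale. Trim30a, a ligase of a family that is expanded in mice, had 1.82 to 5.04 CPM in sham and 0.595 to 3.79 CPM in naive libraries, at 0.76 ± 0.39 (adjusted p = 0.156). Its SE was the largest of the 6 genes. Dtx3l, a ubiquitin ligase, had 12.5 to 18.1 CPM in sham and 7.38 to 17.9 CPM in naive libraries, at 0.16 ± 0.19 (adjusted p = 0.556). Its partner Parp9 had 6.15 to 11.5 CPM in sham and 6.46 to 12.1 CPM in naive libraries, at 0.21 ± 0.19 (adjusted p = 0.415). Of the ADP-ribosyl transferases, Parp12 had 25.7 to 34.1 CPM in sham and 22.9 to 29.3 CPM in naive libraries, at 0.22 ± 0.11 (adjusted p = 0.119), and Parp14 had 20.9 to 29.2 CPM in sham and 15.2 to 26.1 CPM in naive libraries, at 0.29 ± 0.14 (adjusted p = 0.123). The groups overlapped in all 6 genes. Dtx3l and Parp9 start head to head on chromosome 16 and share some exon bases on opposite strands, 8.0% of those of Dtx3l and 9.40% of those of Parp9, so that unstranded reads there cannot be assigned to either. The fitted values of all 6 were positive. Trim25 and Parp12 passed without sham 4 and Parp14 without naive 5. Trim25, Parp12 and Parp14 also passed with library size alone, Parp12 and Parp14 with a GC correction (adjusted p = 0.0440 and 0.0415), and Trim30a without a filter (adjusted p = 0.0126). Limma voom called 7 of the 8 genes of this role higher, where edgeR and DESeq2 called 2.

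The 4 Ifit genes were all higher, with a median log2 fold change of 1.14. They lie in a cluster on chromosome 19, from 34550694 (Ifit2) to 34650009 (Ifit1). Ifit3 had 3.03, 3.68, 7.92, 8.93 and 8.89 CPM in sham 1 to 5, against 2.62, 1.72, 2.61, 1.96 and 2.27 CPM in naive 1 to 5, a rise of 1.58 ± 0.29 (adjusted p = 7.51e-04) on the log2 scale. It was the only Ifit gene whose groups did not overlap. Ifit1 had 1.3, 1.81, 4.23, 4.28 and 3.59 CPM in sham 1 to 5, against 1.9, 0.615, 1.03, 1.72 and 1.7 CPM in naive 1 to 5, with sham 1 and sham 2 inside the naive range, and its log2 fold change was 1.19 ± 0.36 (adjusted p = 0.0179). Ifit3b rose by 1.09 ± 0.36 (adjusted p = 0.0273), with 0.52 to 2.5 CPM in sham and 0.553 to 1.2 CPM in naive libraries, and Ifit2 by 0.60 ± 0.21 (adjusted p = 0.0434), with 3.81 to 7.74 CPM in sham and 3.33 to 6.04 CPM in naive libraries. Leaving out single libraries ended these calls. That of Ifit1 was lost without sham 3 (adjusted p = 0.0506), that of Ifit3b without naive 2 or 3 or sham 3, 4 or 5 (0.0608 to 0.0727), and that of Ifit2 without any library other than naive 4, naive 5 and sham 1 (0.0619 to 0.109). Ifit3 shares 61.8% of its 31-base exon windows with other genes, nearly all with Ifit3b, so the split of reads between them is uncertain.

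Proteins of the cell surface and the medium were higher in 6 of 6 genes, with a median log2 fold change of 1.42. Bst2 (tetherin), which holds budding virions on the cell (chromosome 8, 71534255 to 71537456, minus strand), had 45.3, 83.8, 90.9, 95.2 and 81.1 CPM in sham 1 to 5, against 31.1, 28, 26.3, 29.2 and 21.4 CPM in naive 1 to 5, a rise of 1.55 ± 0.17 (adjusted p = 6.59e-06) on the log2 scale. Sham 1 lay between the other sham libraries and the naive ones. Ifitm3, which blocks virus entry in endosomes (chromosome 7, 141009586 to 141010770, minus strand), had 140.0, 210.4, 252, 289 and 266 CPM in sham 1 to 5, against 81.4, 76.5, 85.6, 81.6 and 79.2 CPM in naive 1 to 5, and its log2 fold change was 1.52 ± 0.15 (adjusted p = 1.63e-06). Per length it was the most abundant of the 47 genes, at 341 CPM per kb in sham and 119 in naive ventricles, and it shares 20.5% of its 31-base exon windows with other genes. Its neighbours on chromosome 7 rose too, Ifitm2 by 0.93 ± 0.11 (adjusted p = 1.11e-05), with 95.7 to 129 CPM in sham and 52.8 to 77.2 CPM in naive libraries, and Ifitm1 by 0.75 ± 0.22 (adjusted p = 0.0143), with 2.34 to 3.57 CPM in sham and 1.17 to 2.29 CPM in naive libraries. Both stood apart between the groups. Ifitm2 is uncertain, since 40.9% of its exon bases are shared with the annotated transcript Gm45717 on the same strand. Lgals3bp, a secreted partner of galectin-3, had 128, 205, 232, 195 and 229.6 CPM in sham 1 to 5, against 68.2, 67.3, 74.3, 74 and 73.8 CPM in naive 1 to 5, a rise of 1.47 ± 0.13 (adjusted p = 4.66e-07) on the log2 scale. Sham 1 was again the lowest sham library. Rtp4, a chaperone of membrane receptors, rose by 1.38 ± 0.27 (adjusted p = 0.00136). It had 4.07, 12.1, 12.4, 15 and 12.7 CPM in sham 1 to 5, against 3.21, 3.75, 4.11, 5.88 and 4.74 CPM in naive 1 to 5, with sham 1 inside the naive range.

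**Figure D2:**
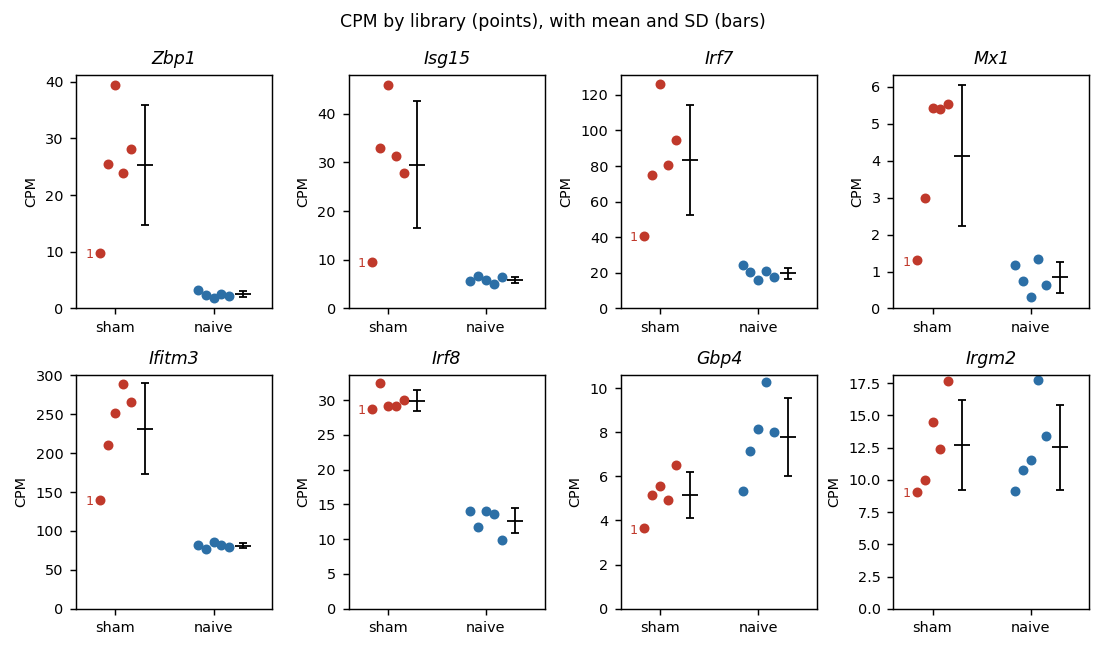
CPM of single genes by library (y axis from 0, points), with sham on the left of naive in each panel and the mean with SD of 5 libraries as bars. The point of sham 1 is marked 1, and points of the groups stand apart for Zbp1, Isg15 and Irf7, and overlap for the GTPases Gbp4 and Irgm2.

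Both Mx genes, antiviral GTPases that trap viral nucleoproteins and are defective in many laboratory strains, were higher. Mx1 had 1.3, 2.99, 5.43, 5.4 and 5.54 CPM in sham 1 to 5, against 1.19, 0.738, 0.316, 1.33 and 0.631 CPM in naive 1 to 5, and its log2 fold change was 2.36 ± 0.40 (adjusted p = 3.43e-04). Mx2 had 1.47, 1.81, 2.95, 3.08 and 3.3 CPM in sham 1 to 5, against 0.952, 1.48, 1.42, 0.862 and 1.07 CPM in naive 1 to 5, at 1.13 ± 0.27 (adjusted p = 0.00448). In both genes sham 1 alone reached into the naive range. At these low levels 3 counts in a library correspond to 0.122 to 0.357 CPM. The annotation lists Mx2 as a polymorphic pseudogene, and the counts speak only of its RNA.

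Of the 4 nucleotide and RNA enzymes, 2 were higher. Samhd1, which breaks down deoxynucleotides, had 57.5, 71.3, 86, 67.6 and 88 CPM in sham 1 to 5, against 45.1, 39.9, 36.7, 40.8 and 37.9 CPM in naive 1 to 5, a rise of 0.89 ± 0.11 (adjusted p = 1.75e-05) on the log2 scale. Isg20, an RNA exonuclease, rose by 1.19 ± 0.19 (adjusted p = 1.97e-04), with 4.5 to 9.53 CPM in sham and 2.74 to 3.57 CPM in naive libraries. In both, the groups did not overlap. Rsad2 (viperin), which makes a chain-terminating nucleotide, and its neighbour on chromosome 12, the nucleotide kinase Cmpk2, did not pass. Rsad2 had 13.9, 14.4, 23.3, 14.6 and 16.3 CPM in sham 1 to 5, against 11.8, 11.2, 8.77, 12.1 and 16.5 CPM in naive 1 to 5, and its log2 fold change was 0.45 ± 0.17 (adjusted p = 0.0564). Cmpk2 had 11.5, 10.8, 18.7, 9.95 and 11.7 CPM in sham 1 to 5, against 9.88, 10.7, 11.9, 11.6 and 10.5 CPM in naive 1 to 5, and its log2 fold change was 0.19 ± 0.16 (adjusted p = 0.372). Sham 3 was the highest library for both genes, and the other sham libraries lay within the naive range. The result for Rsad2 lay close to the threshold, and it passed in 7 of 20 alternatives. These were limma voom (adjusted p = 0.00279), no filter (0.00422), library size alone (0.00617), a GC correction (0.0290), and leaving out naive 5, sham 1 or sham 4 (0.0115 to 0.0476). Cmpk2 passed with library size alone (adjusted p = 0.0331) and in no other alternative.

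Of the other small interferon-induced proteins, 4 of 5 were higher. Ifi27l2a, a mitochondrial and membrane protein of the ISG12 family, had 35, 56.2, 60.9, 63.2 and 55.7 CPM in sham 1 to 5, against 15.5, 11.3, 9.72, 11.9 and 9.34 CPM in naive 1 to 5, and its log2 fold change was 2.25 ± 0.17 (adjusted p = 7.31e-08). The groups did not overlap. It lies at chromosome 12, 103442167 to 103443680, minus strand. Ifi27 of the same family lies beside it (chromosome 12, 103434211 to 103440239, plus strand) and did not pass, at 0.17 ± 0.15 (adjusted p = 0.403), with 15.9, 19.4, 15.9, 27.6 and 20.7 CPM in sham 1 to 5, against 15.6, 18.5, 15.6, 20.3 and 18.7 CPM in naive 1 to 5. With library size alone its adjusted p was 0.0304. Ifi44 rose by 1.54 ± 0.34 (adjusted p = 0.00273), with 1.73 to 4.16 CPM in sham and 0.492 to 1.65 CPM in naive libraries, and Xaf1, an antagonist of the apoptosis inhibitor XIAP, by 0.81 ± 0.20 (adjusted p = 0.00633), with 7.02 to 12.8 CPM in sham and 3.93 to 7.77 CPM in naive libraries. Ifi35 rose by 0.37 ± 0.12 (adjusted p = 0.0282), with 15.2 to 21.9 CPM in sham and 11.5 to 16 CPM in naive libraries. The groups stood apart for Ifi44 and overlapped for Xaf1 and Ifi35, and the call of Ifi35 was lost when naive 2, naive 3, sham 3, sham 4 or sham 5 was left out (adjusted p = 0.0521 to 0.0841).

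The GBP and IRG GTPases, which gather on vacuoles and membranes of intracellular pathogens, were at this threshold higher in 0 of the 8 genes with edgeR and TMM factors. Gbp4 (chromosome 5, 105115767 to 105139586, minus strand) had 3.64, 5.14, 5.57, 4.91 and 6.52 CPM in sham 1 to 5, against 5.35, 7.14, 8.14, 10.3 and 8.02 CPM in naive 1 to 5. It was the only gene of the 47 that was lower, at -0.59 ± 0.18 (adjusted p = 0.0191), and the groups overlapped. Without naive 4, sham 2 or sham 4 its adjusted p was 0.0559 to 0.0581, and scaled by library size alone it was 0.207. Gbp3 had 5.46, 8.89, 11.6, 11.3 and 12.6 CPM in sham 1 to 5, against 5.12, 7.01, 7.82, 8.15 and 8.71 CPM in naive 1 to 5, the highest fitted value of the class at 0.44 ± 0.20 (adjusted p = 0.1). Only sham 1 lay inside the naive range, and without sham 1 the increase of Gbp3 passed (adjusted p = 0.00988). It also passed with limma voom (0.0459), without a filter (0.0188) and with library size alone (0.0141). Gbp2 and Gbp7 lie in a cluster with Gbp3 on chromosome 3. Gbp2 had 5.63 to 11.3 CPM in sham and 3.93 to 8.59 CPM in naive libraries, at 0.31 ± 0.23 (adjusted p = 0.346) on the log2 scale, and Gbp7 had 10.6 to 18.7 CPM in sham and 10.1 to 14.8 CPM in naive libraries, at 0.31 ± 0.17 (adjusted p = 0.173). The groups overlapped in both, and Gbp7 passed with library size alone (adjusted p = 0.0173).

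Among the IRG proteins, Irgm1 had 9.7, 10.3, 12.7, 13.4 and 17.1 CPM in sham 1 to 5, against 5.71, 8.0, 7.43, 13.6 and 12.4 CPM in naive 1 to 5, and its log2 fold change was 0.42 ± 0.22 (adjusted p = 0.154). It passed without naive 4 (adjusted p = 0.0478), with limma voom (0.00975), without a filter (0.0159) and with library size alone (0.0307). Irgm2 had 9.09, 10.0, 14.5, 12.4 and 17.7 CPM in sham 1 to 5, against 9.16, 10.8, 11.5, 17.7 and 13.4 CPM in naive 1 to 5, and its log2 fold change was 0.03 ± 0.19 (adjusted p = 0.925). The sham and naive libraries covered nearly the same range. Igtp, which overlaps Irgm2 on chromosome 11 on the same strand, had 7.28 to 11.6 CPM in sham and 6.34 to 12.2 CPM in naive libraries, at 0.15 ± 0.19 (adjusted p = 0.582). Iigp1 had 4.24 to 6.65 CPM in sham and 3.79 to 8.0 CPM in naive libraries, at 0.01 ± 0.23 (adjusted p = 0.979). Per exon length the levels of the GTPases lay within the range of the type I genes, which ran from 0.464 CPM per kb in sham and 0.160 in naive ventricles (Ifi44) up to the values of Ifitm3. Igtp stood at 5.0 CPM per kb in sham and 4.53 in naive ventricles, Gbp2 at 3.21 CPM per kb in sham and 2.59 in naive ventricles and Zbp1 at 7.18 CPM per kb in sham and 0.70 in naive ventricles. A p that misses the threshold does not show that the GTPases did not differ.

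The 5 sham libraries were not alike in these genes. Relative to the naive mean of each gene on the log2 scale, the median over the 39 type I genes was 0.38, 0.77, 1.20, 1.14 and 1.18 in sham 1 to 5, against -0.04, -0.08, -0.09, 0.11 and 0.08 in naive 1 to 5. Sham 1 thus had the smallest increase and sham 2 the next. Sham 1 was the lowest sham library for 40 of the 47 genes and the highest for 0, and it was the lowest for 27 of the 29 higher genes (93.1%). Among all 2342 genes higher in sham it was the lowest library for 44.5%, and its place over all tested genes was not counted. Sham 2 to 5 all exceeded every naive library in 28 type I genes and 1 GTPase (Gbp3), against 15.6% of all tested genes. With any other sham library set aside in place of sham 1, this number was 18 type I genes and 0 GTPases, against 14% to 14.9% of all tested genes.

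The low level of sham 1 differed in size between genes. The level of sham 1 over the naive mean was 1.63 for Isg15, where sham 2 to 5 averaged 5.87. It was 2.05 for Irf7 where the others averaged 4.75, 1.54 for Mx1 where the others averaged 5.75, and 0.93 for Ifit1 where the others averaged 2.49. Irf8 stood at 2.27 in sham 1 and 2.38 in the others, and Ifih1 at 1.56 in sham 1 and 1.68 in the others. For these genes the library was close to the rest of its group. Sham 1 had 10654107 counts, the fewest of the sham libraries. Leaving it out gave 31 higher and 1 lower of the 47 genes. Naive 1 had 9683181 counts, the fewest of the naive libraries. It was the lowest naive library for 19 of the 47 genes and the highest for 9, and the lowest for 6 of the 8 GTPases. How often naive 1 was lowest or highest over all tested genes was not counted. These counts may therefore not be particular to the 47 genes. Whether the number of counts had a part in these levels was not tested. The median over the 8 GTPases was -0.27, -0.13, 0.38, 0.38 and 0.48 in sham 1 to 5, against -0.45, -0.17, 0.01, 0.44 and 0.30 in naive 1 to 5, and these ranges overlapped.

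**Figure D3:**
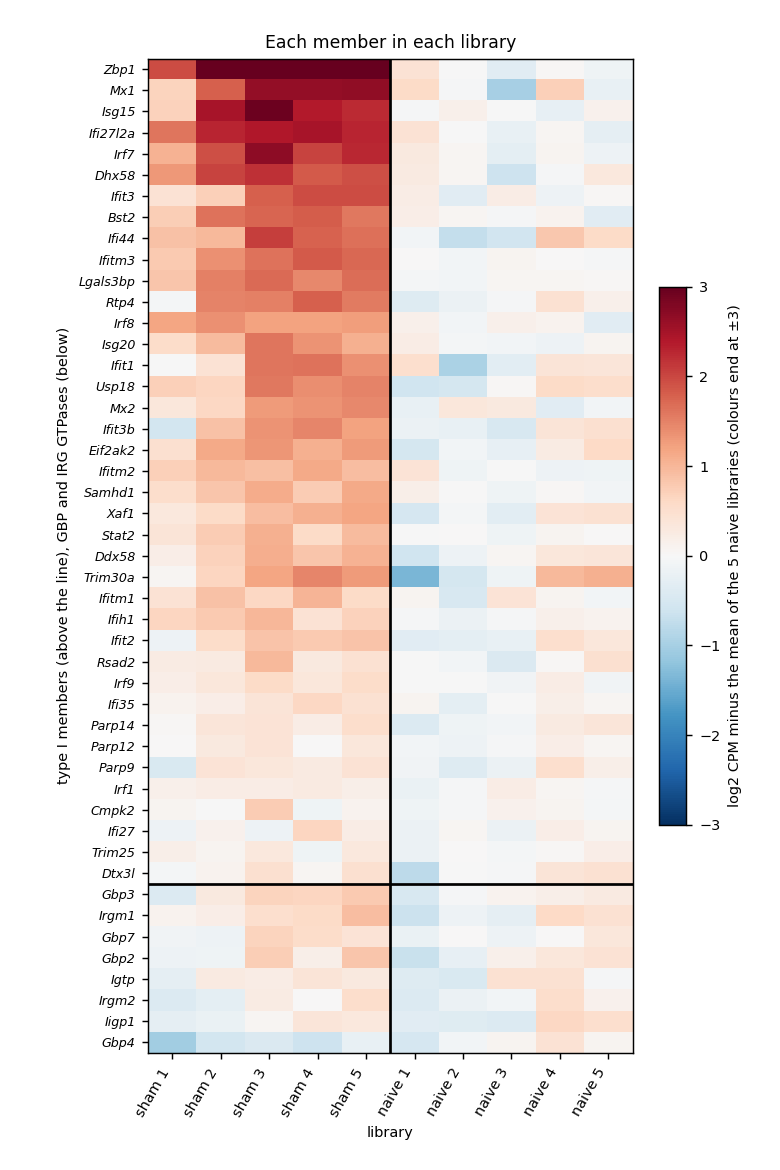
Log2 CPM of each gene (rows, type I genes above the line and GTPases below) in each library (columns, sham on the left), minus the mean of the 5 naive libraries. The column of sham 1 is paler than those of sham 3, sham 4 and sham 5 over most type I genes, and among the GTPases all 5 sham values of Gbp4 lie below its naive mean, from -1.04 to -0.22, and sham 2 to 5 of Gbp3 lie above every naive library.

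The rest of the pathway was mixed. Of 33 other genes of interferon signalling, 25 were tested, of which 14 were higher, 5 lower and 6 not past the threshold (median 0.33). The 7 interferon genes on the list had almost no counts. Ifnb1 had 0 counts over the 5 sham libraries and 3 over the 5 naive libraries, Ifng had 3 in sham and 3 in naive, and Ifnl2 had 2 in sham and 1 in naive. Ifna1, Ifna2, Ifna4 and Ifnl3 had 0 in both groups. The interferon alpha genes have near-identical copies, and so have Ifnl2 and Ifnl3, so that reads of these may be split or lost. A count of 0 in a library allows a level of up to 0.122 to 0.357 CPM (3 counts). Trex1 also had 0 counts in every library, and all of its exon bases are shared with Atrip on the same strand, so its RNA cannot be read from this table.

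Receptor chains changed in both directions. The type I chains were higher, Ifnar2 by 0.40 ± 0.10 (adjusted p = 0.00667) and Ifnar1 by 0.26 ± 0.10 (adjusted p = 0.0493). Of the interferon gamma chains, Ifngr1 was higher by 0.38 ± 0.10 (adjusted p = 0.00677), and Ifngr2 lower at -0.52 ± 0.08 (adjusted p = 1.67e-04). The interferon lambda chains Ifnlr1 and Il10rb were lower, at -0.67 ± 0.17 (adjusted p = 0.00674) and -0.30 ± 0.10 (adjusted p = 0.022). Of the kinases, Tyk2 was higher by 0.33 ± 0.09 (adjusted p = 0.01) and Jak1 lower at -0.33 ± 0.11 (adjusted p = 0.0243), and Jak2 did not pass at 0.02 (adjusted p = 0.925). With library size alone, Jak1, Il10rb and Ifnlr1 did not pass.

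The feedback inhibitors Socs3 and Socs1, which block JAK kinases, were higher by 1.84 ± 0.12 (adjusted p = 2.33e-08) and 1.01 ± 0.16 (adjusted p = 1.92e-04), and the phosphatase gene Ptpn2 at -0.15 ± 0.26 (adjusted p = 0.695) and Pias1 at -0.03 ± 0.13 (adjusted p = 0.895) did not pass. Of the genes that lead to interferon production, the kinase Ikbke had 12.3, 13.5, 14.6, 12.5 and 13.4 CPM in sham 1 to 5, against 3.69, 2.89, 2.77, 2.12 and 2.08 CPM in naive 1 to 5, a rise of 2.32 ± 0.15 (adjusted p = 2.11e-08) on the log2 scale. Its relative Tbk1 did not pass at 0.06 (adjusted p = 0.68). Irf5, a factor of myeloid cells, rose by 1.70 ± 0.13 (adjusted p = 8.12e-08), and Irf3 at 0.14 ± 0.09 (adjusted p = 0.229) and Irf2 at 0.10 ± 0.08 (adjusted p = 0.377) did not pass. The DNA sensing pair Tmem173 (STING) and Mb21d1 (cGAS) rose by 1.43 ± 0.18 (adjusted p = 2.11e-05) and 0.63 ± 0.22 (adjusted p = 0.0404), and Mavs, the adaptor of the RNA sensors, was lower at -0.44 ± 0.08 (adjusted p = 4.97e-04), but not with library size alone (adjusted p = 0.182). The class I and class II trans-activators Nlrc5 and Ciita rose by 0.58 ± 0.16 (adjusted p = 0.00995) and 0.57 ± 0.18 (adjusted p = 0.0243), and the RNA editing enzyme Adar by 0.59 ± 0.10 (adjusted p = 4.32e-04). The calls of Ifnar1, Mb21d1, Ciita, Il10rb and Jak1 were lost without 7, 7, 4, 5 and 5 of the 10 libraries, each left out singly, with adjusted p of 0.0501 to 0.114. DESeq2 did not call Mb21d1 (adjusted p = 0.0563).

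Some markers of single cell types also differed between the groups. Of 13 macrophage and monocyte markers, 12 were tested (all but Ly6c2) and all 12 were higher in sham, with a median log2 fold change of 1.74 and a summed level of 1395 to 1719 CPM in sham against 443 to 542 CPM in naive libraries. Csf1r, the receptor that macrophages depend on, was at 169.5 ± 9.04 CPM in sham and 79.6 ± 4.93 CPM in naive ventricles, and C1qb at 306 ± 33.2 CPM in sham and 83 ± 9.97 CPM in naive ventricles. Relative to the naive mean on the log2 scale, the median of these markers was 1.54, 1.86, 1.73, 1.87 and 1.86 in sham 1 to 5. The log2 median of sham 1 was 0.841 of the mean of those of the other sham libraries. This share was 0.356 for the type I genes and 0.82 for all 2342 genes higher in sham. The part of the macrophage and monocyte markers in the increase of the type I genes was not tested.

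**Figure D4:**
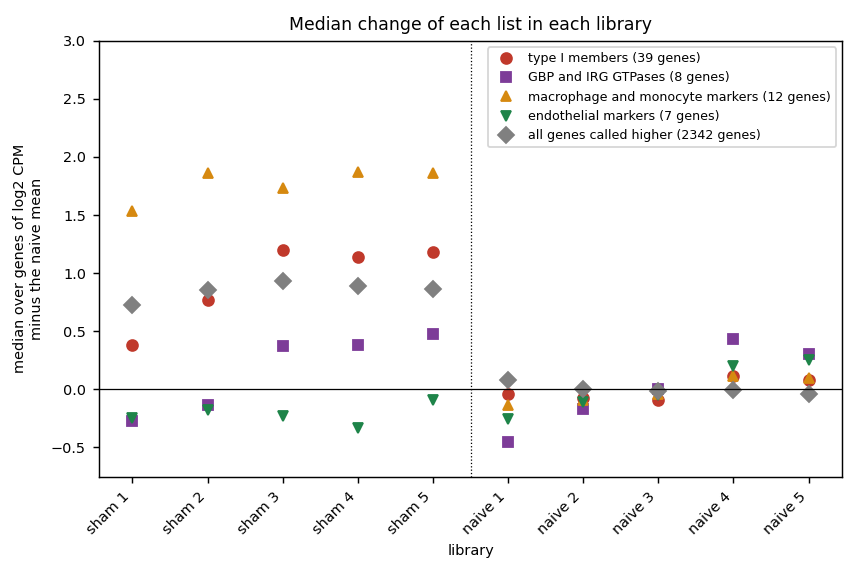
Median over the genes of each list of log2 CPM minus the naive mean (y axis), in each library (x axis, sham on the left). Sham 1 is at 0.38 for the type I genes, where the other sham libraries are at 0.77 to 1.20, and at 1.54 for the macrophage markers, where the others are at 1.73 to 1.87.

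The markers of other immune cells were at lower levels. Of 4 markers of plasmacytoid dendritic cells, the main producers of type I interferon, none was high enough to be tested. They summed to 0.417 to 0.982 CPM in sham and 0.238 to 0.632 CPM in naive libraries, and Klk1 had 0 counts. Of 11 T and NK cell markers none was tested, with sums of 2.01 to 2.55 CPM in sham and 0.369 to 1.90 CPM in naive libraries. Of 4 B cell markers only Cd79b was tested and was higher (adjusted p = 0.0189), with sums of 2.01 to 2.90 CPM in sham and 0.553 to 1.89 CPM in naive libraries. Of 5 neutrophil markers, Csf3r and S100a9 were tested and higher, with sums of 14.6 to 33.4 CPM in sham and 1.82 to 4.80 CPM in naive libraries. Most of these sums was Csf3r, with 13.5 to 27.3 CPM in sham and 1.66 to 3.33 CPM in naive libraries. S100a9 passed at an adjusted p of 0.0424, and 20 of its 23 naive counts were in naive 5. S100a8, Cxcr2 and Retnlg were too low to be tested.

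Of 7 endothelial markers, 1 was higher (Vwf) and 3 were lower (Kdr, Cdh5 and Tek), with sums of 974 to 1127 CPM in sham and 1094 to 1319 CPM in naive libraries. With library size alone 0 of these were lower. Of 6 fibroblast markers, 5 were higher, with sums of 6373 to 11564 CPM in sham and 660.3 to 937 CPM in naive libraries. Most of these sums was Col1a1, with 6003 to 11259 CPM in sham and 451 to 777 CPM in naive libraries. Its log2 fold change was 3.84, where the other higher markers rose by 0.56 (Pdgfra) to 1.34 (Lum), and Dcn did not pass. Of 8 cardiomyocyte markers, 7 were lower (2 with library size alone), with sums of 55228 to 63111 CPM in sham and 73664 to 77476 CPM in naive libraries, so that the defining transcripts of heart muscle were present in every library. The atrial marker Sln had 1 count over the 5 sham and 0 over the 5 naive libraries, and Nppa was higher by 0.87 ± 0.27 (adjusted p = 0.0309). Nppa was at 36.9 CPM in sham 1 and 131 CPM in sham 4, against 38.1 to 53.7 CPM in naive libraries. Myl7 did not pass at 0.05 ± 0.68 (adjusted p = 0.967), with 0.134 to 3.3 CPM in sham and 0.568 to 1.31 CPM in naive libraries. Sham 4 was the highest sham library for all of these atrial markers. The part of these lists in the values of the interferon-stimulated genes was not tested either.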

How the data were processed

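PolyA RNA of 5 sham and 5 naive ventricle samples was sequenced as unstranded single-end reads, per the labels' protocols. The authors deposited raw counts per Ensembl gene on GRCm38. The submitters' processing notes list HTSeq, Bowtie2, TopHat2 2.1.1, edgeR and DESeq but not what each did, and the annotation release was not stated. A column of gene GC percent, also deposited, entered the GC correction and nothing else. The table's 41264 rows included 574 repeats, which were collapsed to 40690 genes. Totals were 10654107 to 21537135 counts in sham and 9683181 to 17577906 in naive libraries. The floor of 3 counts covers counting error only. Within a group, any pair of libraries differed by 9.20 times counting noise or more (chi-square per degree of freedom).

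Genes were kept by filterByExpr (minimum count 10, total 15), leaving 13622, and tested with edgeR 4.0.16 (quasi-likelihood F test, robust, TMM, group alone) in R 4.3.3. The SE was taken from the F statistic. Library medians used log2 CPM with a prior count of 2. The labels list separate samples without saying how animals were handled, so p-values measure the spread between samples, which may be technical. Coordinates and exon lengths are from GENCODE M21 (GRCm38), and CPM per kb divides by the summed exon length. Promoters are from RefSeq (GRCm38.p6). Alternatives were DESeq2 1.42.0, limma 3.58.1 (voom with sample weights), RLE factors, library size alone, no filter, 1 CPM in 5 libraries, no robust estimation, a replicate block, each library left out, and, added after seeing the data, a GC correction and sham 1 with naive 1 left out. The genes, their classes and the pathway and marker lists were chosen with earlier results of these data known. All 49 genes are named, and 1 gene counted in the pathway list is not reported here. Full values are given for up to 4 of smallest p in each role, those that did not pass and those that were lower, and further ones where text compares libraries.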

Additional observations from a re-analysis of the deposited data

Results flagged for a closer look

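In 9 of the 94 groups of 5 libraries examined (47 genes in each of 2 groups), a single library stood apart from the other 4 by more than 0.71 of the range of the group (Dixon's limit). The limit is set to flag about 1 in 20 independent groups of normal values. These groups share the same libraries, so the 9 cannot be set against that rate. The share flagged over all tested genes was not computed. In 5 of the 9 it was sham 1 that stood low. Bst2 was at 45.3 CPM in sham 1, where the other sham libraries were at 81.1 to 95.2. Ifi27l2a was at 35.0 CPM in sham 1 and at 55.7 to 63.2 in the others. Rtp4 was at 4.07 CPM in sham 1 and at 12.1 to 15 in the others. Parp9 was at 6.15 CPM in sham 1 and at 10.2 to 11.5 in the others. Igtp, a GTPase, was at 7.28 CPM in sham 1 and at 10.3 to 11.6 in the others.

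In sham 3, Rsad2 was high at 23.3 CPM, with 13.9 to 16.3 in the other sham libraries, and its neighbour Cmpk2 was high at 18.7 CPM, with 9.95 to 11.7 in the others. In naive 1, Ifitm2 was high at 77.2 CPM, with 52.8 to 57.6 in the other naive libraries. In naive 4, Irf9 was high at 25.5 CPM, with 20.2 to 21.7 in the others.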

How the results depend on the processing

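No called gene of the 47 changed sign in an alternative, but the fitted values of Irgm2 and Iigp1, which did not pass, ran from -0.11 to 0.30 and from -0.10 to 0.29. Of the 47 genes, 25 were called in the main test and in all 20 alternatives, and 17 changed call in at least 1. The number of type I genes higher ran from 25 to 36 over the alternatives, against 29. With library size alone, which moved the median log2 fold change of all genes by 0.26 to 0.22, 4473 of all genes were higher and 283 lower, the GTPases had 3 higher and 0 lower, the 47 genes 0 lower, and the pathway list 1 lower. The balance over all genes turned from 2342 higher and 2113 lower to 2891 and 3269 with voom, 2592 and 2801 with the replicate block and 2311 and 2426 with a GC correction. Voom and the test without a filter called 2 GTPases higher. Leaving out a library gave 0 to 1 GTPases higher (Irgm1 without naive 4, Gbp3 without sham 1), 0 to 1 of the 47 genes and of the GTPases lower, and 3 to 5 pathway genes lower. Without sham 1 and naive 1 together, 1 GTPase was higher. The cause of these differences was not tested. The replicate numbers were not taken to pair the libraries, because no label says what they share and not every pair deviated together across genes with r over 0.1. The r was 0.227, 0.293 and 0.292 for pairs 1, 4 and 5 and 0.035 and 0.008 for pairs 2 and 3, and 3 of 5 sham libraries correlated best with their own number, a hint from the data and not from the design. With the number as a replicate block, 33 of the 47 genes were higher, 2 of them GTPases (Gbp3 and Irgm1, adjusted p = 0.0106 and 0.0134).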
